A study of Mus musculus with 12 samples.

Results

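Membranous nephropathy is a glomerular disease in which antibodies bind proteins on or under the podocyte, the epithelial cell that covers the glomerular capillary, and immune complexes collect on the outer side of the basement membrane. The proteins reported or proposed as antigens in different patients include phospholipase A2 receptor, thrombospondin type 1 domain containing 7A, semaphorin 3B and protocadherin 7. These proteins also include the serine protease HTRA1, the exostosins and neural cell adhesion molecule 1. The genes described here are the 8 mouse genes that encode them: Pla2r1, Thsd7a, Sema3b, Pcdh7, Htra1, Ext1, Ext2 and Ncam1. They were chosen by name for this role in the human disease, though with earlier results of these data known. All 8 were listed in every one of 12 libraries, among 13475 genes listed in all of them. None of the mice is a model of membranous nephropathy, and mRNA levels say nothing of antibodies or deposits.

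The libraries came from RNA-seq of isolated glomeruli of C57BL/6 mice, collected with magnetic beads perfused through the heart. There were 4 groups of 3 different mice. The first group were podocyte-specific DACH1 knockout (KO) mice given streptozotocin (STZ), a toxin of pancreatic beta cells that produces a type I diabetes, at 50 µg/g per day intraperitoneally for 5 days. The second were control mice given the same injections. The third were KO mice at baseline and the fourth control mice at baseline, both 10 weeks old. RNA of the STZ mice was taken 10 days after STZ, and their age is not given in the labels. The labels name neither the Cre driver nor the genotype of the controls. The titles of the STZ control samples begin with hetN, which the labels do not explain, and those of the baseline controls do not. DACH1 is a nuclear protein of the dachshund family that regulates transcription and is found in podocytes.

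The libraries held 2.26e+07 to 2.49e+07 counts at baseline and 6.61e+07 to 7.86e+07 counts after STZ, and the baseline tables listed 13480 genes against 16293 in the STZ tables. STZ, depth and the filter behind the tables therefore change together and cannot be told apart in any comparison of STZ with baseline mice. The hetN titles of the STZ controls and the mix of sexes, given below, also differ between the arms, and age may. All of these bear as well on any difference of the KO effect between the arms. Dach1 itself was at 55.8, 65.9 and 67 CPM (counts scaled to library size) in KO mice after STZ, against 145, 175 and 183 CPM in control mice after STZ, and at 47.2, 56.7 and 59.3 CPM in KO mice at baseline, against 162, 106 and 188 CPM in control mice at baseline. All KO libraries were below all control libraries in each arm, as the labels say, at log2 fold changes of -1.41 after STZ (adjusted p 0.00942, edgeR) and -1.48 at baseline (adjusted p 0.111, edgeR). Judged from Xist and Ddx3y, 1 of 3 KO mice was female after STZ, against 0 of 3 control mice after STZ, and 2 of 3 mice were female in each baseline group. The 10 podocyte markers summed to 31763 to 33171 CPM in KO mice and 29817 to 36899 CPM in control mice after STZ, and to 19008 to 23234 CPM in KO mice and 20420 to 27873 CPM in control mice at baseline. The 10 proximal tubule markers, which come from cells outside the glomerulus, summed to 1798 to 8260 CPM in KO mice and 1406 to 8602 CPM in control mice after STZ. At baseline they summed to 998 to 20275 CPM in KO mice and 1618 to 3696 CPM in control mice.

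The promoters of the gene that differed most between genotypes, Thsd7a, and of the gene for the antigen most often found in patients, Pla2r1, are shown so that the region upstream of both can be read beside their values. The sequences are RefSeq's, on GRCm38.p6, and 5 of the 8 genes had an entry in the table (Pla2r1, Thsd7a, Pcdh7, Htra1 and Ext2). Both genes lie on the minus strand, and each sequence ends at the last base before the outermost start annotated by RefSeq or GENCODE. Thsd7a is chr6:12749411-12749503 and Pla2r1 is chr2:60553327-60553558. Capitals mark the GC box GGGCGG, read on both strands.
Thsd7a: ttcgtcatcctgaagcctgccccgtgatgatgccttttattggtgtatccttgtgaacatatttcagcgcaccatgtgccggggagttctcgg
Pla2r1: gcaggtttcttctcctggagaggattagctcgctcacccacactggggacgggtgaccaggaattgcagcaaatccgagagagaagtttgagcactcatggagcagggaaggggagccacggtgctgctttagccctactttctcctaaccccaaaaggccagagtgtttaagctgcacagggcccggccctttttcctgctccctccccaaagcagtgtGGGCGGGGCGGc
The Pla2r1 window of 232 bases held 2 GC boxes, which overlap each other, and 30.1% of all 32851 mouse promoters hold at least 1 in a window of that length. The Thsd7a window of 93 bases held none, and 9.67% of promoters hold 1 in their corresponding 93 bases. The 157 bases between this window and the RefSeq start of Thsd7a were not searched. Neither window held the forkhead motif GTAAACA, which 2.94% of promoters hold in 232 bases and 1.21% in 93 bases, or the homeodomain motif TAATTA, which 4.70% and 1.95% hold. Forkhead motifs were searched because DACH1 has been described to bind DNA at forkhead sites. No match says only that these letters are not in these windows.

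Among the 8 genes, Thsd7a and Ncam1 had the largest differences between genotypes and lay lower in KO mice in both arms, at folds of 0.395 and 0.497 after STZ and 0.324 and 0.523 at baseline. Sema3b was higher in KO than in control mice after STZ, with no such difference at baseline. Ext1, Pla2r1 and Pcdh7 overlapped between genotypes in both arms. After STZ, 2 of the 8 genes passed edgeR's quasi-likelihood test at an adjusted p of 0.05, 1 higher (Sema3b) and 1 lower (Thsd7a), where 1.07% of all 16291 genes tested did (0.841% higher and 0.233% lower). At baseline none of the 8 passed, where 0.23% of 13475 genes did. Without adjustment, 3 of the 8 reached p under 0.05 in each arm, where 9.08% of all genes did after STZ and 6.94% at baseline. DESeq2 called Thsd7a, Sema3b and Ncam1 after STZ, where it called 565 of the 16291 genes. At baseline it called Thsd7a and Ncam1, where it called 220 of the 13475 genes. The KO and control libraries did not overlap for 4 of the 8 genes after STZ, against 14.9% of all genes, with 2 of the 4 higher (8.62% of all genes) and 2 lower (6.26%). At baseline they did not overlap for 4 of the 8 either, against 11.8%, with 1 higher (4.98%) and 3 lower (6.86%). The median log2 fold change of the 8 was -0.15 after STZ and -0.08 at baseline, beside -0.02 and 0.01 over all genes tested.

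**Figure D1:**
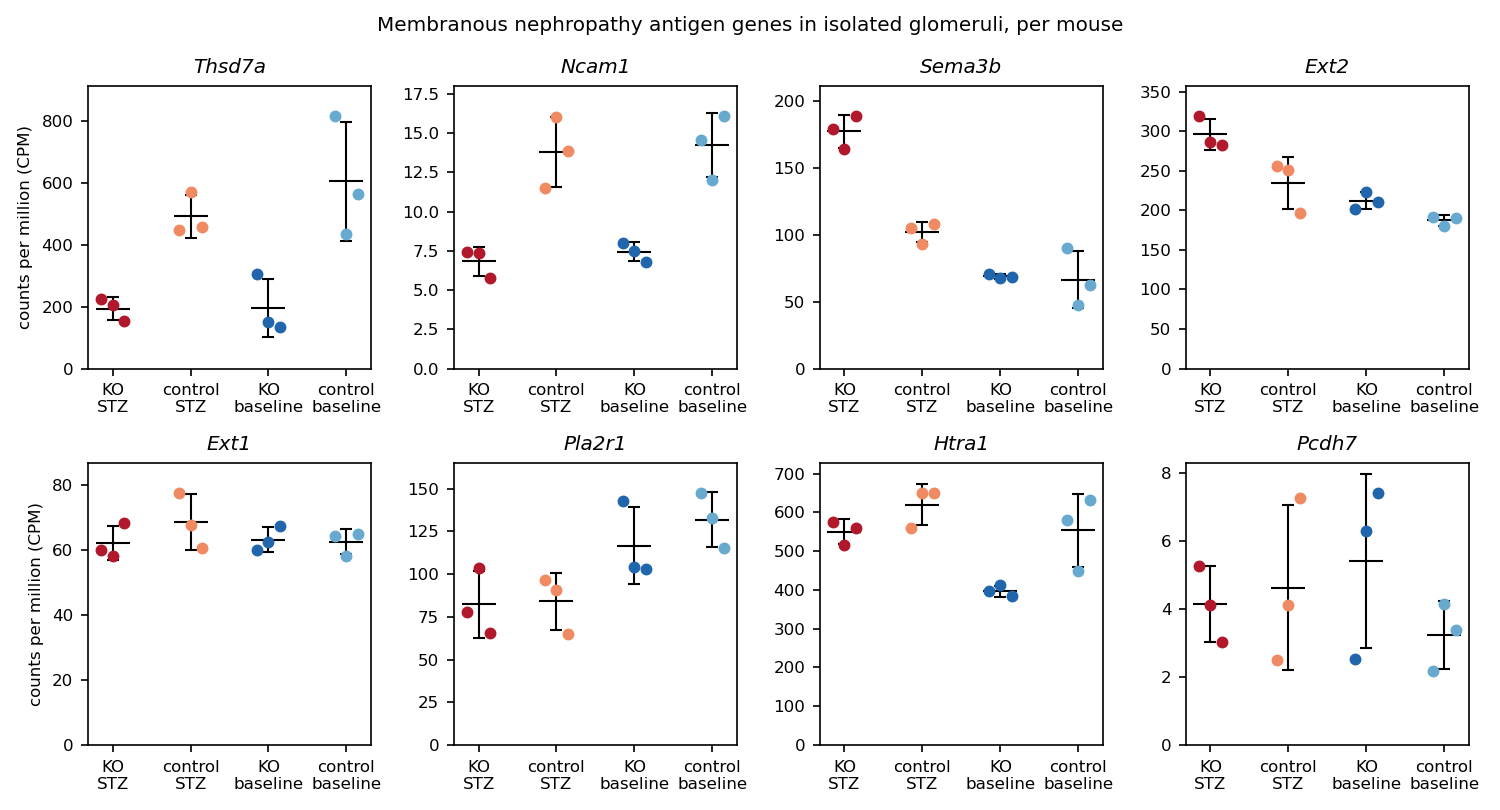
Level of each of the 8 genes in CPM (linear axes from 0), with 1 point per mouse and the mean and SD of 3 mice as bars. In both arms the KO points of Thsd7a and Ncam1 lie below all control points, and the KO points of Sema3b after STZ, at 164 to 188 CPM, lie above those of every other group.

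Thsd7a encodes a large transmembrane protein with thrombospondin type 1 repeats that sits at the podocyte foot process (chromosome 6, 12311610 to 12749410, GRCm38, minus strand). Its level was 225, 205 and 152 CPM in KO mice after STZ, against 447, 573 and 459 CPM in control mice after STZ. The baseline level was 305, 151 and 133 CPM in KO mice, against 817, 435 and 564 CPM in control mice. Every KO library was below every control library of its arm, and the highest KO value, in 1 baseline mouse, was still below the lowest control value of either arm. Thsd7a fell to 194 ± 37.7 CPM in KO mice after STZ, against 493 ± 69.2 CPM in controls (SD, n = 3 each), a fold of 0.395 (95% interval 0.29 to 0.537). On the log2 scale the fold change was -1.34 (SE 0.19), and edgeR gave an adjusted p of 0.0298. The means at baseline were 196 ± 94.8 CPM in KO mice and 605 ± 194 CPM in controls (SD, n = 3 each), and the log2 fold change was -1.62 (SE 0.39, 95% interval -2.57 to -0.68). That difference had an unadjusted p of 0.00547 and did not pass the adjustment (0.358, edgeR), with a spread within groups that was larger at baseline than after STZ.

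The call for Thsd7a after STZ rested on all 6 libraries. With any 1 of them left out, the log2 fold change stayed between -1.45 and -1.20 while the adjusted p in edgeR ran from 0.0542 to 0.128. With the mean of the podocyte markers as a covariate it was -1.25 (adjusted p 0.0948, edgeR), and at baseline -1.12 (adjusted p 0.297, edgeR). Fitted with the mean of the proximal tubule markers, the baseline log2 fold change was -1.37 and passed (adjusted p 0.045, edgeR). In bulk glomeruli, fewer cells of a type and less RNA per cell cannot be told apart.

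Pla2r1 encodes the phospholipase A2 receptor, a C-type lectin of the mannose receptor family that binds secreted phospholipases A2 (chromosome 2, 60417543 to 60553308, GRCm38, minus strand). Its level was 77.9, 103.7 and 65.3 CPM in KO mice after STZ, against 96.7, 90.6 and 65.2 CPM in control mice after STZ. Baseline values were 143, 104.0 and 103 CPM in KO mice, against 148, 133 and 115 CPM in control mice. Genotypes overlapped in both arms, and the control STZ libraries lay below all baseline libraries, while 1 KO STZ library lay just above the lowest KO baseline library. The log2 fold change of KO over control was -0.03 after STZ (95% interval -0.57 to 0.51, adjusted p 0.997, edgeR) and -0.18 at baseline (95% interval -0.58 to 0.22, adjusted p 0.834, edgeR). These intervals leave room for a change in either direction, but not for one as large as that of Thsd7a. Pla2r1 shares 299 bases, 3.11% of its exons, with an antisense gene, Gm13583, and strand handling of the counts is not given in the sources used here.

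**Figure D2:**
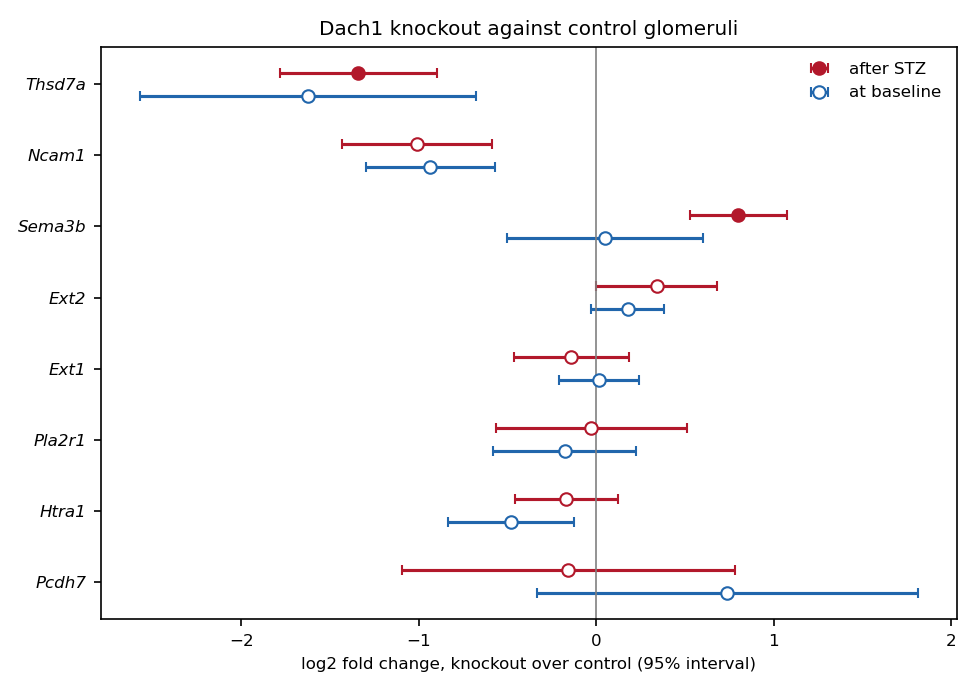
Log2 fold change of KO over control for each of the 8 genes, after STZ and at baseline, with 95% intervals from edgeR; filled symbols passed an adjusted p of 0.05. Thsd7a (-1.34 after STZ, -1.62 at baseline) and Ncam1 (-1.01 and -0.93) lie left of 0 with their intervals in both arms, and Sema3b lies right of 0 after STZ (0.80) and at 0.05 at baseline.

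Of the adhesion molecules, Ncam1 encodes neural cell adhesion molecule 1, an immunoglobulin superfamily protein of neurons and of the developing kidney (chromosome 9, 49502136 to 49798925, GRCm38, minus strand). Its level was 7.39, 7.33 and 5.75 CPM in KO mice after STZ, against 11.5, 16 and 13.9 CPM in control mice after STZ. At baseline it was 8.02, 7.5 and 6.79 CPM in KO mice, against 14.6, 12 and 16.1 CPM in control mice. All 6 KO libraries lay below all 6 control libraries, across arms as well as within them. The mean was 6.83 ± 0.929 CPM in KO mice and 13.8 ± 2.24 CPM in controls after STZ, and 7.44 ± 0.613 CPM in KO mice and 14.2 ± 2.04 CPM in controls at baseline (SD, n = 3 each). The log2 fold change was -1.01 (SE 0.18, fold 0.497) after STZ and -0.93 (SE 0.15, fold 0.523) at baseline. Neither passed in edgeR fitted within an arm, at adjusted p of 0.064 after STZ and 0.128 at baseline. Both passed in one edgeR fit over all 12 libraries, at adjusted p of 0.009 after STZ and 0.037 at baseline, and the difference after STZ also passed with the proximal tubule covariate (0.0347). With the podocyte marker mean the adjusted p in edgeR was 0.169 after STZ and 0.297 at baseline. With sex as a covariate it was 0.189 after STZ and 0.277 at baseline. With any 1 library left out after STZ, the log2 fold change was -1.13 to -0.89 (adjusted p 0.0755 to 0.253, edgeR). At baseline it was then -1.04 to -0.84 (adjusted p 0.106 to 0.505, edgeR).

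A fit of both arms with arm as a term, added after the values were seen, used all 12 libraries and gave Ncam1 a log2 fold change of -0.98 (SE 0.11, fold 0.509), and edgeR an adjusted p of 0.00055. In that fit 2.83% of 13475 genes passed, and 1.31% passed in the lower direction. Thsd7a passed in it too, at -1.48 (SE 0.23, adjusted p 0.00378, edgeR), and Sema3b did not, at 0.43 (SE 0.17, adjusted p 0.288, edgeR). Ncam1 is also a gene of nerve and Schwann cells, and of their 4 markers 1 was listed in both arms. Sox10, S100b and Tubb3 were listed in neither arm, and Mbp stood at 1.28 to 1.64 CPM in KO mice and 1.47 to 1.63 CPM in controls after STZ, and at 2.27 to 4.08 CPM in KO mice and 2.47 to 4.68 CPM in controls at baseline. Ncam1 shares 417 bases, 4.81% of its exons, with the antisense gene Gm11149.

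Pcdh7 encodes protocadherin 7, a calcium-dependent adhesion protein of the cadherin superfamily (chromosome 5, 57717967 to 58133230, GRCm38, plus strand). Its level was 5.27, 4.14 and 3.03 CPM in KO mice after STZ, against 2.51, 4.13 and 7.28 CPM in control mice after STZ. The baseline level was 2.53, 6.32 and 7.43 CPM in KO mice, against 2.17, 4.16 and 3.40 CPM in control mice. All 4 groups overlapped. On the log2 scale the difference was -0.16 after STZ (95% interval -1.10 to 0.78, adjusted p 0.987, edgeR) and 0.74 at baseline (95% interval -0.33 to 1.81, adjusted p 0.802, edgeR), and both intervals include 0. Exons of the antisense gene 4932441J04Rik cover 21.1% of the Pcdh7 exons. Whether counts of the 2 genes were kept apart there depends on strand handling, which is not given in the sources used here. At 50 to 164.5 counts per baseline library and 179 to 499.5 per STZ library it was also the least deeply counted of the 8.

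Among the secreted proteins, Sema3b encodes a class 3 semaphorin, a family that signals through neuropilins and plexins (chromosome 9, 107597674 to 107609229, GRCm38, minus strand). Its level was 179, 164 and 188 CPM in KO mice after STZ, against 105, 93.1 and 108 CPM in control mice after STZ. Baseline values were 70.9, 67.4 and 68.0 CPM in KO mice, against 89.8, 47.4 and 62.0 CPM in control mice. The 3 KO mice after STZ were above every other library, and at baseline the KO values fell inside the control range. Sema3b rose to 177 ± 12.2 CPM in KO mice after STZ, against 102 ± 7.75 CPM in controls (SD, n = 3 each), a fold of 1.74 (95% interval 1.44 to 2.10). The log2 fold change was 0.80 (SE 0.11, adjusted p 0.0332, edgeR) after STZ and 0.05 (SE 0.23, 95% interval -0.50 to 0.60, adjusted p 0.972, edgeR) at baseline. With any 1 of the 6 STZ libraries left out the log2 fold change was 0.74 to 0.84 and the adjusted p 0.0695 to 0.19 (edgeR). It was 0.74 with the podocyte marker mean (adjusted p 0.0812, edgeR). Of 7 markers of smooth muscle and renin cells tested after STZ, 1 passed, Tagln at 885 CPM in KO mice and 64.9 CPM in controls (adjusted p 0.0339, edgeR). The other 6 did not, where 1.07% of all genes passed, and the median log2 fold change of the 7 was -0.0043. At baseline 6 were tested, at a median of -0.69, and 4 lay lower in KO mice without overlap (6.86% of all genes). For the interaction of genotype and STZ, described next, all 6 were positive, at a median of 1.00. Of these, 5 had an unadjusted p under 0.05 in edgeR (3.67% of all genes). The part of these cells in the Sema3b values was not tested.

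Whether the KO effect on Sema3b differed between arms was tested with the interaction of genotype and STZ over all 12 libraries. It was 0.75 on the log2 scale (SE 0.26, 95% interval 0.17 to 1.33). The unadjusted p in edgeR was 0.0165 and the adjusted p 0.975, so the 2 arms were not shown to differ. Among all genes, 3.67% had an unadjusted p under 0.05 for the interaction and 0.00742% passed the adjustment. None of the other 7 genes reached that unadjusted level, and DESeq2 called none of the 8. For Thsd7a the interaction was 0.28 (SE 0.45, 95% interval -0.73 to 1.28) and for Ncam1 -0.08 (SE 0.23, 95% interval -0.59 to 0.43), both with an adjusted p above 0.05 in edgeR.

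Htra1 encodes a secreted serine protease that cleaves matrix proteins (chromosome 7, 130936111 to 130985660, GRCm38, plus strand). Its level was 576, 515 and 560.0 CPM in KO mice after STZ, against 559.6, 650.4 and 650.4 CPM in control mice after STZ. At baseline it was 396, 412 and 383 CPM in KO mice, against 580.1, 449 and 632 CPM in control mice. The genotypes overlapped after STZ, while at baseline all KO mice were below all controls, at 397 ± 14.4 CPM in KO mice and 554 ± 94.6 CPM in controls (SD, n = 3 each). On the log2 scale the difference was -0.17 after STZ (95% interval -0.46 to 0.12, adjusted p 0.828, edgeR) and -0.48 at baseline (95% interval -0.84 to -0.12, unadjusted p 0.0162, adjusted p 0.548, edgeR).

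Ext1 and Ext2 encode the exostosins, Golgi glycosyltransferases that work as a complex to polymerize heparan sulfate, a sugar chain of the basement membrane (Ext1 on chromosome 15, 53064038 to 53346159, and Ext2 on chromosome 2, 93661028 to 93822568, GRCm38, both minus strand). Ext2 was at 319, 287 and 283 CPM in KO mice after STZ, against 256, 251 and 196 CPM in control mice after STZ. The baseline level was 202, 223 and 210 CPM in KO mice, against 192, 180 and 191 CPM in control mice. Every KO value was above every control value of its arm, by a small margin at baseline. The log2 fold change was 0.34 after STZ (SE 0.14, unadjusted p 0.0505, adjusted p 0.553, edgeR) and 0.18 at baseline (SE 0.08, adjusted p 0.787, edgeR).

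Ext1, the other subunit, was at 59.9, 58.1 and 68.1 CPM in KO mice after STZ, against 77.5, 67.6 and 60.4 CPM in control mice after STZ. Baseline values were 59.8, 62.4 and 67.1 CPM in KO mice, against 64.3, 58.0 and 64.9 CPM in control mice. All 4 groups overlapped, with means of 62.0 ± 5.32 CPM in KO mice and 68.5 ± 8.59 CPM in controls after STZ, and 63.1 ± 3.71 CPM in KO mice and 62.4 ± 3.84 CPM in controls at baseline (SD, n = 3 each). On the log2 scale the difference was -0.14 after STZ (95% interval -0.47 to 0.19, adjusted p 0.9, edgeR) and 0.02 at baseline (95% interval -0.21 to 0.24, adjusted p 0.978, edgeR).

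The level after STZ was next compared with baseline within each genotype, on libraries that also enter the KO comparisons. Markers of other cells moved with this contrast. The 7 immune cell markers had a median log2 fold change of 2.02 in KO mice and 2.67 in controls, the 6 mesangium markers -0.82 and -1.16, and the 8 endothelium markers -0.55 and -0.47. The 6 smooth muscle and renin cell markers tested had a median of 0.73 in KO mice, with all 6 positive. In controls their median was -0.31, with all 6 negative. Of these 6, 4 in KO mice and 1 in controls had an unadjusted p under 0.05 in edgeR. The 10 proximal tubule markers had medians of -1.16 and 0.10. The immune markers listed in both arms, 7 of 8, summed to 151 to 430 CPM in KO mice and 196 to 984 CPM in control mice after STZ, and to 83.1 to 107 CPM in KO mice and 70.5 to 118 CPM in control mice at baseline. The 984 CPM belonged to control STZ replicate 1, which stood apart from the other control mice after STZ at 196 and 200 CPM. Without it, Pla2r1 was at -0.80 and Sema3b at 0.55 on the log2 scale for STZ in control mice, and Thsd7a at -1.41 and Sema3b at 0.82 for KO after STZ. The part of these cells in the values below was not tested. Sema3b rose in KO mice to 177 ± 12.2 CPM after STZ, against 68.8 ± 1.85 CPM at baseline (SD, n = 3 each), a fold of 2.53 (95% interval 2.13 to 3.00). The log2 fold change was 1.34 (SE 0.10, adjusted p 0.0118, edgeR). It was the only one of the 8 genes to pass, where 0.178% of 13473 genes did (0.111% higher). DESeq2 called Htra1 (adjusted p 0.0003) and Ext2 (adjusted p 0.000357) in KO mice as well, where it called 805 of the 13473 genes. With 1 of the 6 libraries left out, the log2 fold change was 1.29 to 1.38 and the adjusted p 0.0316 to 0.156 (edgeR), and it passed only without KO baseline replicate 1. In control mice Sema3b was at 102 ± 7.75 CPM after STZ and 66.4 ± 21.6 CPM at baseline (SD, n = 3 each), giving 0.59 on the log2 scale (SE 0.23, unadjusted p 0.0392, adjusted p 0.382, edgeR), with no overlap between the groups.

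None of the 8 genes passed for STZ against baseline in control mice in edgeR, where 0.23% of 13473 genes did, nor in DESeq2. Without adjustment, 3 of the 8 reached p under 0.05 in KO mice, against 14.7% of all genes, and 2 of the 8 in controls, against 12.6%. Pla2r1 had means of 84.2 ± 16.7 CPM after STZ and 132 ± 16.2 CPM at baseline in control mice (SD, n = 3 each), without overlap, and a log2 fold change of -0.68 (SE 0.18, unadjusted p 0.00809, adjusted p 0.262, edgeR). In KO mice its log2 fold change was -0.53 (SE 0.23, adjusted p 0.361, edgeR). With sex as a covariate the Pla2r1 log2 fold change was -0.48 in controls and -0.41 in KO mice. All 3 control mice after STZ were male and 2 of 3 at baseline were female. The fit in controls therefore leans on 1 male baseline mouse, at 115 CPM. Htra1 and Ext2 were higher without overlap after STZ in KO mice, at log2 fold changes of 0.45 (SE 0.11, adjusted p 0.151, edgeR) and 0.46 (SE 0.10, adjusted p 0.136, edgeR). In control mice Htra1 was at 0.13 (SE 0.17) and Ext2 at 0.29 (SE 0.14). Thsd7a was at -0.05 (SE 0.36, 95% interval -0.91 to 0.80) in KO mice and -0.33 (SE 0.25) in controls, and Ncam1 at -0.15 (SE 0.16, 95% interval -0.54 to 0.24) in KO mice and -0.08 (SE 0.17) in controls. With the podocyte marker mean as a covariate, the log2 fold change in KO mice was -1.42 for Thsd7a (adjusted p 0.112, edgeR), -1.38 for Pla2r1 (0.085) and -0.53 for Ncam1 (0.37). That mean was 10.06 to 10.17 log2 CPM in KO mice after STZ and 9.54 to 9.87 at baseline. Because these ranges do not overlap, the fit extrapolates and cannot separate STZ from the podocyte marker level. Groups did not overlap for 3 of the 8 genes in KO mice, against 21.6% of all genes, and for 2 of the 8 in controls, against 19.8%.

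**Figure D3:**
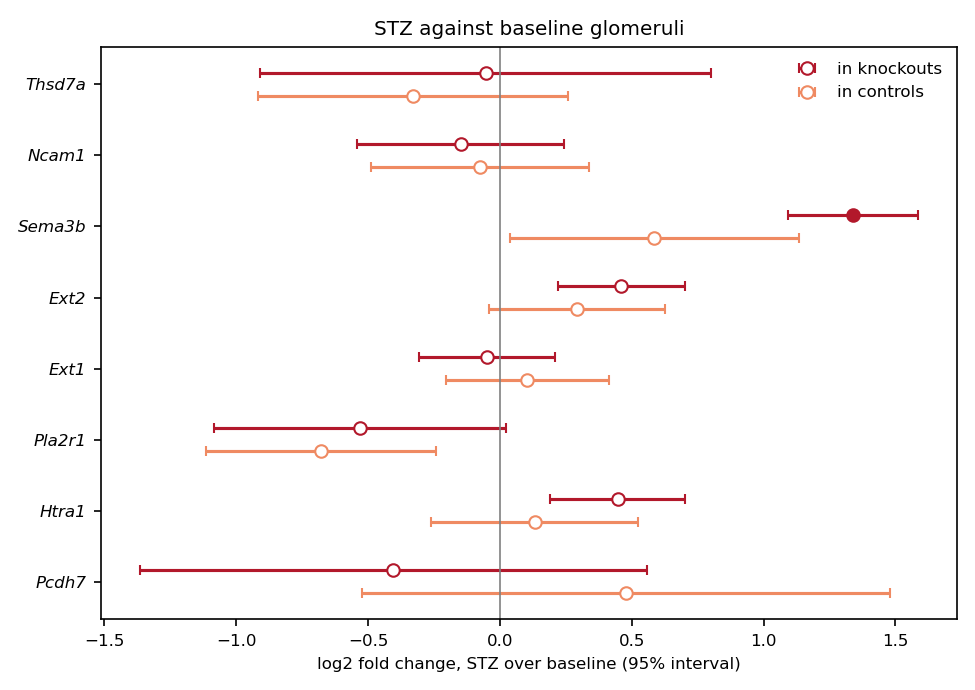
Log2 fold change of STZ over baseline for each of the 8 genes, in KO and in control mice, with 95% intervals from edgeR; filled symbols passed an adjusted p of 0.05. Sema3b in KO mice (1.34) is the filled symbol, and Pla2r1 lies left of 0 in both genotypes (-0.53 in KO mice, -0.68 in controls).

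Levels of different genes were compared per kilobase of annotated exon, which for genes of very different length changes the order. Htra1 was the most abundant of the 8 in every group, at 191 CPM per kb in KO mice and 215 CPM per kb in controls after STZ, and at 138 CPM per kb in KO mice and 192 CPM per kb in controls at baseline. Thsd7a was second in control mice, at 35.9 CPM per kb after STZ and 44.1 CPM per kb at baseline. In KO mice it was at 14.1 CPM per kb after STZ and 14.3 CPM per kb at baseline, below Ext2 (40.4 and 28.9 CPM per kb). Among 13215 genes with an exon length, Thsd7a ranked 3728 in KO mice at baseline, against 1128 in control mice at baseline. Ncam1 and Pcdh7 were low in all groups, at 0.788 to 1.64 and 0.306 to 0.511 CPM per kb.

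**Figure D4:**
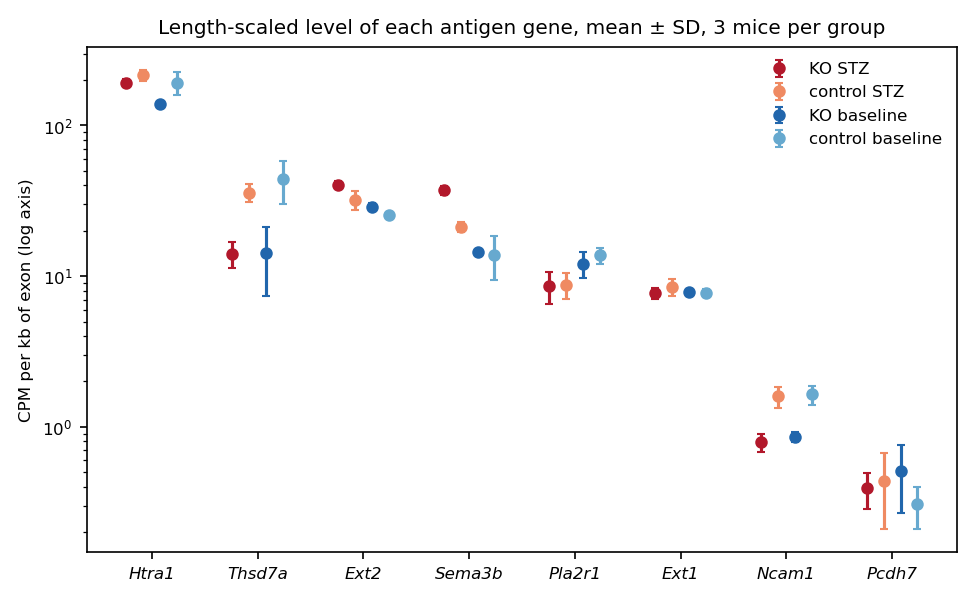
Mean level of each of the 8 genes per kilobase of annotated exon in the 4 groups (CPM per kb, log axis). Htra1 lies highest at 138 to 215 CPM per kb, Ncam1 and Pcdh7 lie lowest at 0.306 to 1.64 CPM per kb, and Thsd7a drops below Ext2 in the KO groups.

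The genes with the most similar pattern were found by the root mean square (RMS) difference of log2 CPM over the 12 libraries, each gene centred on its mean in each arm, among 12898 genes. Ncam1 was nearest to Nap1l1 (RMS 0.137), Sulf1 (0.162) and Ptch1 (0.175). For Thsd7a, Fgl2, Spon1 and Kcng2 came closest at 0.269, 0.282 and 0.282. These larger values go with a larger variation of Thsd7a itself, whose RMS around its arm means was 0.840. That of Ncam1 was 0.510 and that of Sema3b 0.347. Sema3b was nearest to Tmem54, Cntnap4 and Abca2 (0.131, 0.133 and 0.136), Pla2r1 to Gne, Nt5e and Adgrl3 (0.0746, 0.0786 and 0.104), and Pcdh7 to Epha1, Bid and Hepacam (0.171, 0.173 and 0.179). For the genes that varied least, Htra1 (Itfg2, Ldah and Degs1, RMS 0.0942 to 0.0984), Ext1 (Gnl2, Qrich1 and Phf23, 0.0713 to 0.0747) and Ext2 (Dnah6, Daglb and Soat1, 0.0563 to 0.0651), a small RMS is also what little variation gives. These are likenesses across 12 libraries that share mice and depth, given as a description.

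The genes around the 8 were described by 7 lists: other proposed antigens, enzymes of heparan sulfate, the mannose receptor family, secreted phospholipases A2, class 3 semaphorins with their receptors, relatives of the 8 genes, and complement. In these lists 1 of 70 genes tested passed in the KO comparison after STZ (1.43%, against 1.07% of all genes) and 0 of 58 at baseline (against 0.23%). Without adjustment, 10 of the 70 and 11 of the 58 reached p under 0.05, or 14.3% and 19.0%, against 9.08% and 6.94% of all genes. That gene was Mrc2, a collagen-binding relative of Pla2r1 in the mannose receptor family, of which 4 of 4 were tested. Mrc2 rose to 384 CPM in KO mice after STZ, against 218 CPM in controls, which is 0.81 on the log2 scale (SE 0.12, adjusted p 0.0331, edgeR). At baseline it was at 367 CPM in KO mice and 270 CPM in controls (log2 fold change 0.45, adjusted p 0.59, edgeR). Its call after STZ was lost with any 1 of the 6 libraries left out (log2 fold change 0.76 to 0.86, adjusted p 0.0764 to 0.141, edgeR). Mrc1, the macrophage mannose receptor, was at -0.04 after STZ and -0.40 at baseline, with neither passing. Markers of fibroblasts, cells in which MRC2 is known, summed to 189 to 239 CPM in KO mice and 184 to 217 CPM in controls after STZ, over 5 of 6 listed genes. The median log2 fold change of the 5 was 0.75, and 3 of them had an unadjusted p under 0.05 in edgeR. These were Dcn, Col1a1 and Col3a1. Dcn was at 9.86 CPM in KO mice and 5.86 CPM in controls, Col1a1 at 19.1 and 11.3 CPM, and Col3a1 at 35.0 and 19.7 CPM. Col1a2, the most abundant, was at 123 and 139 CPM in the same groups, and Pdgfra at 18.1 and 21.3 CPM. At baseline the 5 summed to 175 to 231 CPM in KO mice and 270 to 438 CPM in controls. Their median log2 fold change there was -0.11, with 4 of the 5 negative. The part of these cells in the difference of Mrc2 was not tested.

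Of the other proposed antigens, 8 of 9 were tested after STZ and 6 at baseline, and none passed in edgeR, with 2 after STZ and 3 at baseline at an unadjusted p under 0.05. Ndnf was not listed in either arm. The largest difference relative to its error was in Mme, neprilysin, a peptidase of the podocyte surface, at 881 CPM in KO mice and 441 CPM in controls after STZ (log2 fold change 1.00, SE 0.18, adjusted p 0.0664, edgeR). At baseline it was at 601 CPM in KO mice and 375 CPM in controls (0.68, SE 0.20, adjusted p 0.515, edgeR), and its KO and control libraries overlapped in neither arm. Pcsk6, a proprotein convertase, was at 0.59 after STZ and 0.46 at baseline (adjusted p 0.261 and 0.802, edgeR). The median of the list was 0.06 after STZ and 0.15 at baseline.

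None of the 23 heparan sulfate enzymes tested after STZ and none of the 21 tested at baseline passed in edgeR, while 3 and 4 had an unadjusted p under 0.05, and their medians were 0.02 and -0.03. Sulf1, which removes sulfate from heparan sulfate outside the cell, was at 91.5 CPM in KO mice and 154 CPM in controls after STZ (log2 fold change -0.76, SE 0.15, adjusted p 0.0845, edgeR). At baseline it was at 96.8 CPM in KO mice and 191 CPM in controls (-0.98, SE 0.21, adjusted p 0.287, edgeR), with KO libraries below control libraries in both arms. Hs3st3b1, a 3-O-sulfotransferase, was at -0.65 after STZ and -0.69 at baseline (adjusted p 0.21 and 0.263, edgeR), also without overlap. Both enzymes act on chains that the Ext1 and Ext2 products have made.

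Among the class 3 semaphorins and their receptors, 13 of 13 were tested in each arm and none passed in edgeR, with 1 after STZ and 2 at baseline at an unadjusted p under 0.05 and medians of -0.18 after STZ and -0.06 at baseline. Sema3g, abundant in these libraries, lay on the other side of 0 from Sema3b: 2195 CPM in KO mice and 4888 CPM in controls after STZ (log2 fold change -1.16, SE 0.26, adjusted p 0.137, edgeR). At baseline it was at -0.90 (SE 0.20, adjusted p 0.311, edgeR), without overlap in either arm. Sema3e was at -0.43 after STZ and -0.61 at baseline (adjusted p 0.615 and 0.368, edgeR).

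The secreted phospholipases A2, ligands of the Pla2r1 product, were low: 3 of 9 were tested after STZ and 2 at baseline, and in edgeR none passed or had an unadjusted p under 0.05. Pla2g12a was at 7.13 CPM in KO mice and 6.08 CPM in controls after STZ, and Pla2g5 at 3.24 CPM in KO mice and 4.42 CPM in controls. Of 11 relatives of the 8 genes, 11 were tested after STZ and 6 at baseline, and none passed in edgeR, with 2 and 0 at an unadjusted p under 0.05. Htra3, a relative of Htra1, was at 2.17 CPM in KO mice and 0.687 CPM in controls after STZ (log2 fold change 1.66, SE 0.28, adjusted p 0.0528, edgeR), and Ncam2, a relative of Ncam1, at 1.48 CPM in KO mice and 1.00 CPM in controls (0.56, adjusted p 0.396, edgeR). Of the complement genes, 8 of 9 were tested after STZ and 6 at baseline, and none passed in edgeR, with 1 after STZ and 0 at baseline at an unadjusted p under 0.05. Cfi, complement factor I, was at 0.89 after STZ and 0.56 at baseline (adjusted p 0.245 and 0.742, edgeR), and Cd59a, an inhibitor of the membrane attack complex, at 0.05 and -0.34 (adjusted p 0.99 and 0.756, edgeR).

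**Figure D5:**
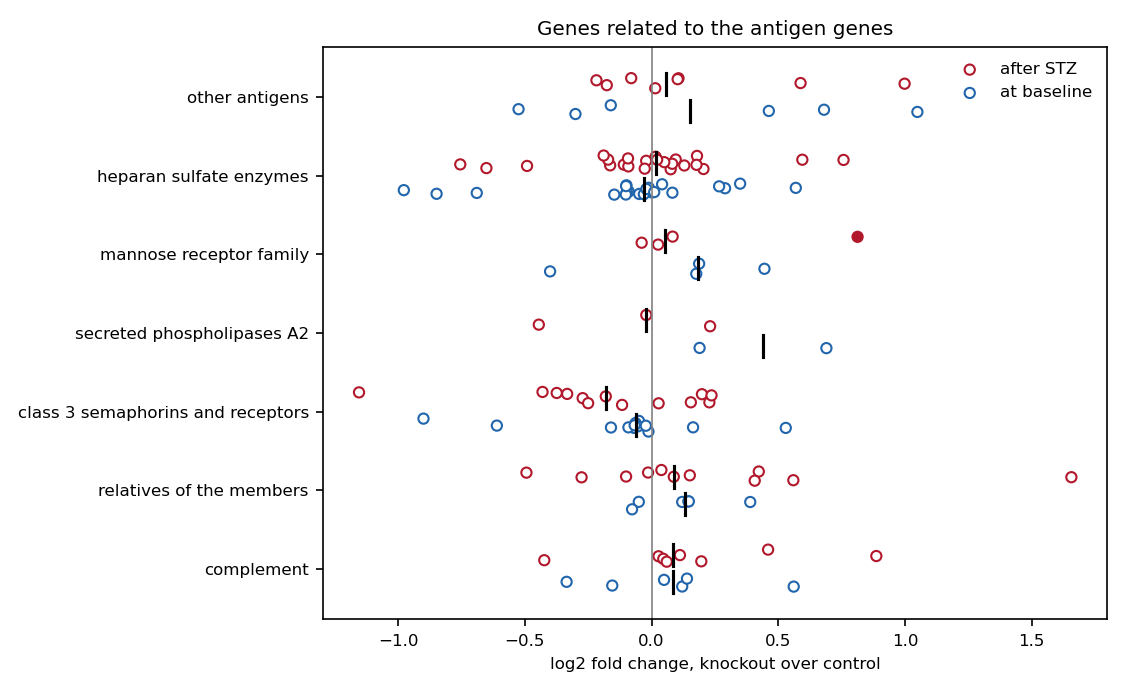
Log2 fold change of KO over control for every tested gene of the 7 related lists, after STZ and at baseline; black ticks are list medians and the filled symbol passed an adjusted p of 0.05 in edgeR. Mrc2 after STZ (0.81) is the filled symbol, Htra3 lies farthest right (1.66) and Sema3g farthest left (-1.16).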

How the data were processed

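Glomerular RNA of 12 mice was analysed, 3 in each of 4 groups. For each mouse the authors deposited a table of expected counts by gene symbol, not scaled to depth. Of its values 10.5% to 11.5% end in 0.5, and 18 blanks were taken as 0. Counts were then rounded to whole numbers. BWA and mm10 are named, with no role, in the submitters' processing notes. How reads were counted, and whether by strand, is not given in the sources used here. Replicates of a group differed beyond sampling noise (chi-square per degree of freedom 42.0 to 352), and p-values measure the spread between these mice.

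Genes were filtered with filterByExpr, scaled with TMM and compared by the quasi-likelihood test of edgeR 4.0.16 (with limma 3.58.1, under R 4.3.3). P-values were adjusted over all genes by Benjamini-Hochberg, with calls at an adjusted p under 0.05. KO was compared with control within each arm on 6 libraries. STZ was compared with baseline within each genotype and the interaction over 12 libraries, over genes listed in both arms. SE came from the F statistic. CPM of the 8 genes and of marker sums were scaled over all 12 libraries, and CPM of other genes within their comparison. Exon lengths and positions are from GENCODE M21 (GRCm38, which is mm10). The tests were tested on simulated data. Alternatives were another scaling, DESeq2 1.42.0, no filter, covariates, a fit over all libraries and each library left out.

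The 8 genes and the lists were chosen with earlier results of these data known. All 8 are named, with each called gene of a list and the 2 with the smallest p in a KO comparison, and the 3 nearest genes by pattern with a mean of at least 1 CPM. Some genes of the lists are not reported here.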

Additional observations from a re-analysis of the deposited data

How the results depend on the processing

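With 3 mice a group, counts of calls moved with most choices, while the directions of Thsd7a, Ncam1, Htra1, Ext2 and Sema3b in the KO comparison after STZ held in all 14 alternatives. The cause was not tested. Genes called for KO against control after STZ numbered 175, and 565 with DESeq2, 341 with a proximal tubule covariate, 69 with the podocyte marker mean, 63 with sex, 293 in one fit over 12 libraries and 381 over both arms with arm as a term, an alternative chosen after seeing the data. At baseline they numbered 31, and 220, 66, 16, 10, 79 and 381 in the same order. For STZ in KO mice they numbered 24, and 805 with DESeq2, 303 with the proximal tubule mean, 252 with the podocyte mean, 9 with sex and 251 in one fit, and for STZ in control mice 31, and 410, 49, 4, 6 and 69. For the interaction the count was 1, and 2 with DESeq2's size factors, 31 with DESeq2 and 0 with each covariate. With 1 library left out the counts were 40 to 109 for KO after STZ, 4 to 51 for KO at baseline, 1 to 8 for STZ in KO mice, 4 to 12 for STZ in control mice and 0 to 2 for the interaction.

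Thsd7a after STZ, called at -1.34, missed the threshold with the podocyte mean (-1.25), with sex (-1.39), in one fit (-1.35, adjusted p 0.0719, edgeR) and with any library left out (-1.45 to -1.20). Sema3b after STZ, called at 0.80, missed it with the podocyte mean (0.74), with sex (0.84), in one fit (0.80), over both arms (0.43) and with any library left out (0.74 to 0.84). Sema3b for STZ in KO mice missed it with the podocyte mean (1.23) and with sex (1.33), and was 1.29 to 1.38 with a library left out. Since KO replicate 2 is the only female among the STZ mice, the sex term in the KO comparison after STZ does what leaving out that mouse does. DESeq2 called Thsd7a and Sema3b after STZ and also Ncam1 in both arms (adjusted p 6.43e-05 after STZ and 0.0004 at baseline) and Thsd7a at baseline (0.00333). Small differences changed sign: Pla2r1 for KO after STZ (0.13, podocyte mean; -0.24 to 0.11 with a library left out), Pcdh7 (0.27, both arms; -0.46 to 0.31), Mrc1 (0.026, proximal tubule mean; 0.14, podocyte mean; -0.32 to 0.22), Pla2g5 (0.095, both arms; -0.89 to 0.47) and Cd59a (-0.15, both arms; -0.030 to 0.12). At baseline Ext1 did (-0.0056, proximal tubule mean; -0.063, both arms; -0.033 to 0.046), and so did Pla2g5 (-0.19, podocyte mean) and Sema3b (-0.14 to 0.33 with a library left out). For STZ in KO mice Pcdh7 (1.48) and Ext1 (0.078) did with the podocyte mean, which did not overlap between those groups. Thsd7a did with sex (0.15, and -0.28 to 0.44 with a library left out). In control mice Htra1 did (-0.053 with the podocyte mean and -0.054 with sex), as did Ext1 (-0.0032 to 0.20) and Ncam1 (-0.20 to 0.032) with a library left out. For the interaction Thsd7a did (-0.014, podocyte mean), and Ncam1 (-0.19 to 0.040) and Pla2r1 (-0.056 to 0.32) with a library left out.

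No paired analysis was possible because the groups hold different mice and the labels number no replicates; the numbers used here only name the mice. Depth limits the low genes most, Pcdh7 and Ncam1 among the 8.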
